A study of Mus musculus with 246 samples.

Results

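The circadian clock genes described here are 10 genes taken by name from the 56691 genes of the deposited table, of which 21915 are protein-coding: Per2, Per3, Cry1, Cry2, Nr1d1, Nr1d2, Dbp, Tef, Ciart and Bhlhe41. All 10 passed the filter on low counts in every region and were tested in every comparison. The question was whether their levels differed between adult mice killed after a social encounter and mice killed without one, and so whether the time of day of the collection could have differed between both sets.

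The cell-autonomous clock is a delayed feedback loop. CLOCK (or NPAS2 in its place) and ARNTL, also called BMAL1, bind E-box elements and switch on the Per and Cry genes, whose proteins return to the nucleus and block their own activators. A second loop runs through the nuclear receptors Nr1d1 and Nr1d2 (Rev-erb alpha and beta), which repress Arntl, and the activator also drives Dbp and its relatives, Ciart and Bhlhe41. Nearly every brain region keeps such a clock, set by the suprachiasmatic nucleus, by glucocorticoids and by body temperature, and the messages peak in a fixed order over the day. Per1 and Per2 are in addition induced acutely by neuronal activity and by glucocorticoids.

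RNA was sequenced from pooled bilateral punches of 6 regions of 41 male CD1 mice, an outbred stock, 1 library for each region and mouse. The regions were the medial prefrontal cortex (mPFC), the anterior cingulate cortex (ACC), the nucleus accumbens shell (Nacc), the basolateral amygdala (BLA), the dorsomedial thalamus (DMT) and the ventral hippocampus (vHipp). Of these mice, 21 were killed without an encounter (NoInteraction) and 20 after 10 min with an unfamiliar mouse (SocialInteraction). Each set held 3 rearing arms: Ctrl_Vehicle (7 and 6 mice), ELA_Vehicle (7 and 7) and ELA_SAFit2 (7 and 7).

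ELA stands for early life adversity, here limited bedding and nesting material for dam and litter. SAFit2 is an inhibitor of FKBP51, a co-chaperone that lowers the sensitivity of the glucocorticoid receptor, and was given to the dams in a gel, so that pups received it through milk; Vehicle is the gel alone. No Ctrl_SAFit2 arm existed, and mice of all 3 arms were caged together after weaning, so every animal of either set shares that mixed housing. The hour at which each brain was collected was not given in the sources used here. The methods state a morning window and a random order for the animals of the hormone and adrenal measurements, and no time for the sequenced ones.

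Library totals ranged from 20804247 to 43351424 estimated counts, with medians of 29129085 in NoInteraction and 28458864 in SocialInteraction libraries. In Nacc, 12 of 41 libraries resembled another mouse than their label more than their own, 6 labelled NoInteraction and 6 labelled SocialInteraction, and 8 of them resembled a mouse of the other set. For all 12, the mouse resembled was itself among the labels of these libraries. The libraries were kept as labelled, and the main values that rest on Nacc are also given without them or without Nacc. Punch markers were highest in the regions they mark, except Slc17a7 and Rspo2 (highest in ACC), Prox1 (vHipp) and Wfs1 (Nacc). Of the suprachiasmatic transcripts, Six6 did not pass the filter, Avp and Prok2 had region means of at most 0.684 and 1.65 CPM (with a single library at 10.84 CPM for Avp), and Vip, which cortical interneurons also express, reached a mean of 44.2 CPM in mPFC. Fewer cells of a type and less RNA per cell cannot be told apart in such bulk samples.

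The E-box (CACGTG) through which the loop is driven can be read in the windows before some of the members. Windows of 250 bases before to 50 bases after the start site were taken from RefSeq (build GRCm38.p6) and matched by symbol for 9 of the 10 genes, Per2 being the exception. Stretches from 4 of them are printed below from 5′ to 3′ on the strand of the gene, because they carry the elements named by the loop. Capitals mark an E-box or, in Cry1, also the related E-prime box (CACGTT, or AACGTG on the other strand), and in Per3 the D-box (TTATGTAA) bound by Dbp and Tef.
Ciart, chr3:95882247-95882364, minus strand: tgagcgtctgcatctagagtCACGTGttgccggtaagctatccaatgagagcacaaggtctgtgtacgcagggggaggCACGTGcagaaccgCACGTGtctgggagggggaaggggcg
Cry1, chr10:85185089-85185153, minus strand: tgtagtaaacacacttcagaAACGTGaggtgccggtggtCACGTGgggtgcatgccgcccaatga
Tef, chr15:81811256-81811301, plus strand: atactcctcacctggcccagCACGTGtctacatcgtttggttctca
Per3, chr4:151044796-151044890, minus strand: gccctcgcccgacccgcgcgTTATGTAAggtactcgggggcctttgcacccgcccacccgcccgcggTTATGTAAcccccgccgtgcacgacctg

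Ciart, a repressor of the CLOCK complex, held 3 E-boxes within 116 bases of its start. At least 3 E-boxes, anywhere in the window, were found in 29 of 32851 windows (0.0883%). Per3 held 2 D-boxes, 205 and 158 bases before its start, and 7 windows of all (0.0213%) held at least 2 anywhere. Searched on both strands, the E-box stood in 5 of the 10 windows of members (Tef had 2, and Ciart, Cry1 and Bhlhe41 had 1 each) against 7.15% of all windows, and the E-prime box in 3 (Cry1, Cry2 and Nr1d1) against 4.68%. The D-box stood in 1 member window against 0.938% of all. The core of the Rev-erb element (TAGGTCA, 2.61% of windows) and the cyclic AMP element (TGACGTCA, 1.79%) were in no member window. No matches of different motifs overlapped. These are matches of letters in a short window, and binding was not measured.

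The main comparison set SocialInteraction against NoInteraction mice, with the counts of the 6 regions summed per mouse. With each mouse counted as independent, Per2 and Per3 were higher and Nr1d1 was lower after the encounter, by 21.5%, 9.9% and 7.9%. The other 7 members did not pass an adjusted p of 0.05. With runs of consecutive mouse numbers as the unit, described further on, no member was called. The adjusted p was then 0.149 for Per2, 0.292 for Per3 and 0.109 for Nr1d1. In all, 3 of 10 members were called over mice, against 8.56% of the 17381 genes tested (819 up and 669 down). Members and the gene lists below were chosen with earlier results of these data known, so such shares are only descriptive. Of Per1, Clock, Arntl and Npas2, and of 9 further clock genes, none was called. The median log2 difference of the members was 0.04, with 8 of 10 above 0, and that of all genes was -0.0009. p-values throughout come from edgeR's quasi-likelihood test with Benjamini-Hochberg adjustment over all genes tested, unless another test is named, and levels are CPM, counts of a gene scaled to a common library total, which compare a gene between mice but not genes with each other.

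Per2, a core period gene of the negative limb, ranged from 28.9 to 42.8 CPM in NoInteraction mice with a median of 32.6. In SocialInteraction mice it ranged from 30.5 to 49.4 CPM with a median of 41. The groups overlapped, but 19 of 20 SocialInteraction mice were above the NoInteraction median and 9 were above the highest NoInteraction mouse. The log2 difference was 0.28 (SE 0.058, adjusted p = 0.00162).

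Per3, a period gene that is not required for rhythms but follows them closely, had a median of 64.7 CPM (55.8 to 72.3) without and 71.3 CPM (59.4 to 83.6) after the encounter. Of the 20 SocialInteraction mice, 10 were above the highest NoInteraction mouse. The log2 difference was 0.14 (SE 0.037, adjusted p = 0.016). Per3 lies within Camta1 on the same strand, and Camta1 itself differed by 0.0031 on the log2 scale (adjusted p = 0.95).

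Nr1d1, the repressor of Arntl, had a median of 109.5 CPM (95.2 to 131.8) without and 102.95 CPM (92.3 to 114.7) after the encounter. Only 5 of 20 SocialInteraction mice exceeded the NoInteraction median, and 3 were below the lowest NoInteraction mouse. The log2 difference was -0.12 (SE 0.032, adjusted p = 0.0156). Its neighbour Thra, which overlaps it on the opposite strand, differed by -0.03 (adjusted p = 0.15).

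Cry1, the cryptochrome whose message peaks late, came closest to the threshold among the rest. Its median was 13.8 CPM (12.9 to 15.7) without and 15.3 CPM (12.5 to 16.4) after the encounter, with 18 of 20 SocialInteraction mice above the NoInteraction median. The log2 difference was 0.09 (SE 0.029, adjusted p = 0.0562), and it passed the threshold once Nacc was left out of the sums (0.10, adjusted p = 0.0223).

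Dbp and Ciart, outputs with large daily amplitude, were close together in both sets. Dbp had a median of 72.6 CPM (54.5 to 83.9) without and 74.7 CPM (59.1 to 87.8) after the encounter, a log2 difference of 0.06 with a 95% interval from -0.041 to 0.165 (adjusted p = 0.543). Ciart had a median of 11.4 CPM (8.98 to 14.7) without and 11.35 CPM (9.17 to 14.3) after, a difference of 0.01 with an interval from -0.11 to 0.136 (adjusted p = 0.942). The difference of Per2, with an interval from 0.168 to 0.394, lay above both intervals, but the genes were not tested against each other. These intervals count all mice as independent. They are too narrow to the extent that mice of a run of consecutive numbers, described further on, are alike. With runs as the unit, Per2 gave 0.245 (adjusted p = 0.149), Dbp 0.025 (0.904) and Ciart -0.0169 (0.948).

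The 4 remaining members did not pass. Nr1d2, partner of Nr1d1, had medians of 129.7 and 134.4 CPM and a log2 difference of 0.04 (adjusted p = 0.335), although 7 SocialInteraction mice were above the highest NoInteraction mouse. Tef, a D-box activator, had medians of 331.7 and 346.5 CPM (0.04, adjusted p = 0.285). The medians of Cry2, the second cryptochrome, were 157.1 and 154.6 CPM (-0.01, adjusted p = 0.633), and those of Bhlhe41, an E-box repressor, were 34.9 and 36.02 CPM (0.02, adjusted p = 0.801).

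Neither Per1 nor the activators passed the test. Per1, a period gene that shares with Per2 the induction by activity, had medians of 92.7 and 97.2 CPM and a log2 difference of 0.0047 (adjusted p = 0.968). Clock differed by 0.0069 (adjusted p = 0.847), Arntl by -0.05 (0.334) and Npas2 by 0.06 (0.219). Arntl2, Rora, Rorb, Bhlhe40, Nfil3, Hlf, Timeless and Cipc, further genes of the clock, did not pass either, and the lowest adjusted p among them was 0.48, for Nfil3.

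**Figure D1:**
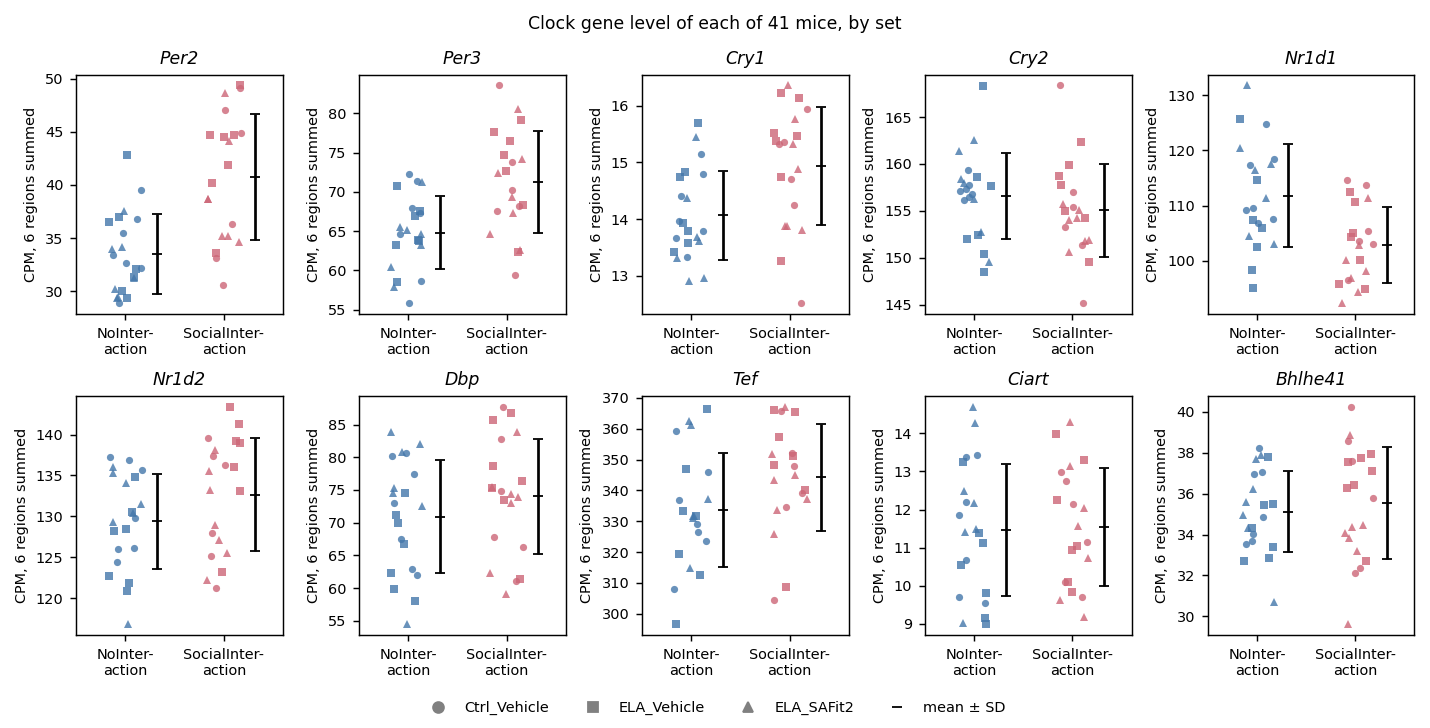
CPM of each of the 10 clock genes with the 6 regions summed, 1 point per mouse (21 NoInteraction and 20 SocialInteraction mice, marker shape for the arm) and bars for the mean and SD. Per2 and Per3 sit higher in SocialInteraction mice (medians 41 and 71.3 against 32.6 and 64.7 CPM) and Nr1d1 lower (102.95 against 109.5), while Dbp and Ciart overlap almost wholly.

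Taken region by region, Per2 rose in 5 of 6 regions. The rise was 0.43 on the log2 scale in mPFC (SE 0.093, adjusted p = 0.00282), 0.36 in ACC (0.0239), 0.25 in BLA (0.00636), 0.31 in DMT (0.0489, or 0.0594 without the filter on low counts) and 0.29 in vHipp (0.00227), each with its adjusted p in parentheses. In BLA all 20 SocialInteraction mice (47.4 to 67.8 CPM, median 56.0) were above the NoInteraction median of 46.6 CPM, and 13 NoInteraction mice were below the lowest of them. In mPFC the spread was wider, from 25.8 to 48.2 CPM (median 29.9) without and from 24.9 to 57.9 CPM (median 44.0) after the encounter. In DMT, where Per2 was lowest, the medians were 16.1 and 20.5 CPM, and in vHipp 30.1 and 38.6 CPM.

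Per3 rose and Nr1d1 fell in both frontal regions. Per3 rose by 0.24 in mPFC (adjusted p = 0.0019) and 0.18 in ACC (0.0268), and gave 0.17 in vHipp (0.189), 0.14 in BLA (0.128) and 0.06 in DMT (0.638). Nr1d1 fell by 0.24 in mPFC (adjusted p = 0.00806) and by 0.19 in ACC (0.0463, or 0.0548 without the filter on low counts), and gave -0.08 in BLA (0.128), -0.08 in vHipp (0.517) and -0.05 in DMT. In mPFC, 7 SocialInteraction mice had less Nr1d1 than any NoInteraction mouse. Cry1 gave 0.18 in mPFC (adjusted p = 0.119) and 0.13 in BLA (0.15). Of the activators, Npas2 rose in mPFC (0.12, adjusted p = 0.0398) and in BLA (0.19, adjusted p = 0.0111).

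These make 9 calls of members over the 6 regions: 3 each in mPFC and ACC, and 1 each in BLA, DMT and vHipp. With runs of consecutive mouse numbers as the unit, described further on, none of the 9 was called. The share of all genes called was 7.4% in mPFC, 4.15% in ACC, 1.49% in BLA, 1.6% in DMT and 1.21% in vHipp. In Nacc no gene was called (0.0%), by edgeR or by DESeq2, with 391 genes at an unadjusted p under 0.05, and 4 genes without the 12 libraries that resembled another mouse. Per2 there gave 0.09 (adjusted p = 1.0), and 0.21 (adjusted p = 0.544) without those 12 libraries.

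Whether a region responded differently from the rest was tested on per-mouse differences between that region and the mean of the other 5, with limma and Benjamini-Hochberg adjustment. No member passed in any region. The share of all genes called was 0.54% for mPFC, 0.0659% for DMT, 0.0198% for vHipp and 0.00659% for BLA, and 0.0% for ACC and Nacc (759 and 679 genes at an unadjusted p under 0.05). The response of mPFC minus that of the others was 0.15 for Per2 (adjusted p = 0.166), 0.13 for Per3 (0.138) and -0.14 for Nr1d1 (0.0974). For Per2 in Nacc it was -0.22 (adjusted p = 0.998). The frontal pattern of Per3 and Nr1d1 is thus not shown to differ from the other regions.

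**Figure D2:**
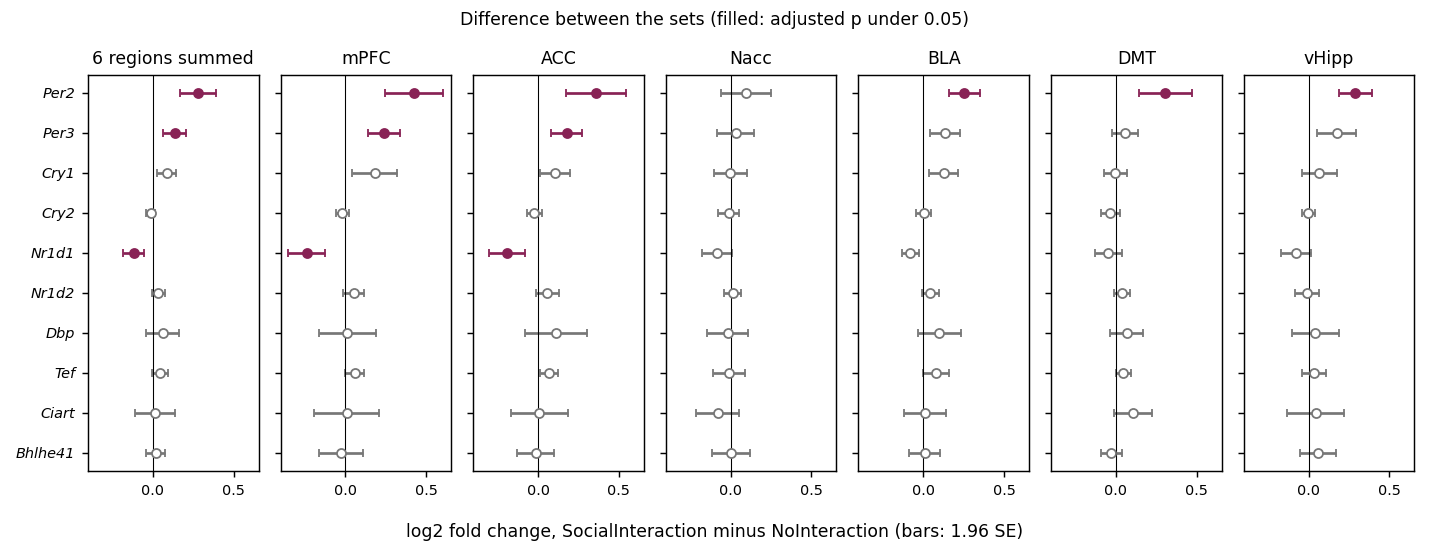
SocialInteraction minus NoInteraction as log2 fold change for each clock gene, with the regions summed and in each of the 6 regions; bars are 95% intervals and filled points have an adjusted p under 0.05. Per2 lies above 0 in every region and is filled in all but Nacc, Per3 and Nr1d1 are filled in mPFC and ACC, and Dbp and Ciart have no filled point.

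The mouse numbers fell into 14 runs of up to 8 consecutive numbers, and each run lay wholly in 1 set, 7 in each. What a run stands for (a cage, a cohort or a day) was not given. The arms followed the number within a run: mouse 57 was Ctrl_Vehicle, 59 and 61 were ELA_Vehicle and 63 was ELA_SAFit2. Runs with fewer mice held part of this order. These are the proportions in which the paper caged the arms after weaning, but no label names a run as a cage. The clock genes differed strongly between the runs of a set. For Per2, 81.5% of the sum of squares between mice of a set lay between runs, for Cry1 66.7%, for Nr1d2 62.7%, for Per3 62.3%, for Ciart 60.3% and for Dbp 59.5%. The median over 16655 genes was 32.1% and the 90th percentile 49.6%. Of the members only Cry2, at 31.1%, was below that percentile.

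The run means of Per2 were 29.5 to 40.0 CPM (median 32.5) without and 32.6 to 47.9 CPM (median 40.4) after the encounter. Of the 7 SocialInteraction runs, 4 were above every NoInteraction run. SocialInteraction mice 17 to 23 (34.0 CPM), 25 to 31 (32.6 CPM) and 79, a run of 1 mouse (35.2 CPM), lay among the NoInteraction runs, and NoInteraction mice 9 to 15 (40.0 CPM) lay among the SocialInteraction runs. The highest run was mice 57 to 63, with 4 mice between 44.5 and 49.4 CPM, and the lowest was mice 65 to 71, with 3 mice between 28.9 and 30.2 CPM.

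Run means of Nr1d1 were 102.7 to 121.4 CPM without and 96.4 to 112.0 CPM after the encounter, with 4 SocialInteraction runs below every NoInteraction run. Those of Dbp were 59.97 to 77.4 and 62.2 to 83.5 CPM, with medians of 72.3 and 73.5. With the run as the unit, 7 runs against 7, 372 genes were called and no member was among them. Per2 then gave 0.25 (adjusted p = 0.149), Per3 0.11 (0.292), Nr1d1 -0.12 (0.109) and Cry1 0.08 (0.33). The sizes stayed close to those over mice, and the calls rest on counting mice of a run as independent. No run held mice of both sets, so whatever separates the runs cannot be told apart from the encounter mouse by mouse.

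**Figure D3:**
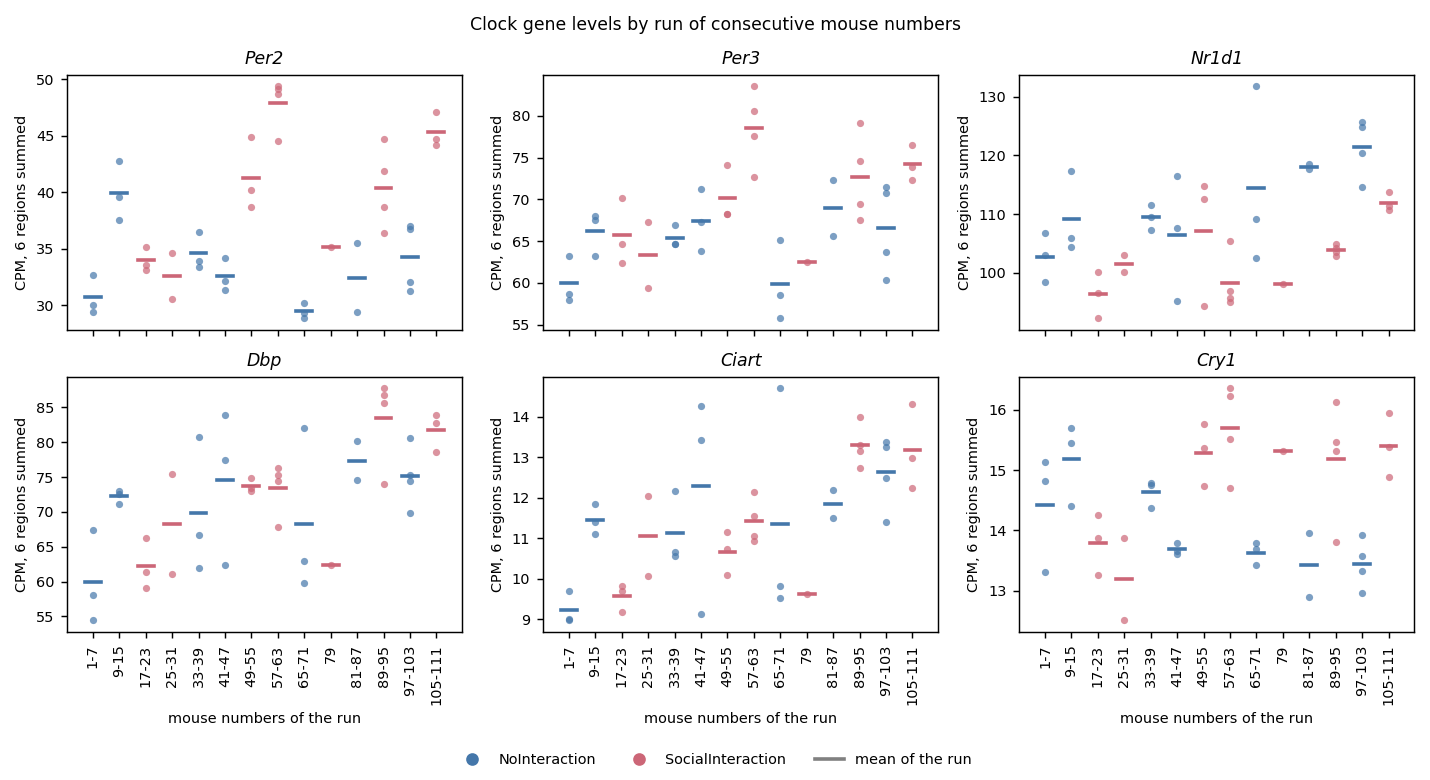
CPM with the regions summed, by run of consecutive mouse numbers (14 runs, 7 in each set), 1 point per mouse and a line at each run mean, for Per2, Per3, Nr1d1, Dbp, Ciart and Cry1. Mice of a run lie close together for Per2, and the SocialInteraction runs of mice 17 to 31 sit at the level of the NoInteraction runs.

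The clock genes also varied together between mice of the same group. With the mean of its arm and set subtracted from each mouse, log2 levels averaged over regions were compared with Dbp over 41 mice, by a permutation test within groups. Permuting mice ignores the runs, between which much of the spread of Dbp lay, so the p-values below are too small to the extent that mice of a run are alike. Of 15172 genes tested, 0.138% were called with a positive and 0.0989% with a negative correlation. Of the 9 other members, 7 were called, all positive. Ciart had a Pearson's r of 0.89 (Spearman's rho 0.91), Nr1d2 0.88 (0.80), Bhlhe41 0.80 (0.75), Per3 0.68 (0.64) and Cry2 0.66 (0.69). These 5 had p = 1e-05, the smallest the permutations can give, and an adjusted p of 0.0101. Nr1d1 had r = 0.64 (0.69; permutation p = 2e-05, adjusted 0.0144) and Tef 0.60 (0.59; permutation p = 6e-05, adjusted 0.0337).

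Without the 2 mice farthest from the median of Dbp, r was 0.88 for Ciart, 0.84 for Nr1d2, 0.74 for Bhlhe41, 0.64 for Nr1d1, 0.61 for Per3, 0.59 for Cry2 and 0.57 for Tef. Arntl, the activator that the Rev-erb receptors repress, ran the other way (r = -0.74, rho -0.68; -0.64 without both mice), as did Nfil3, the D-box repressor (r = -0.70). Per2 and Cry1 followed Dbp least, with r = 0.50 (rho 0.46; permutation p = 0.00203, adjusted 0.207) and r = 0.27 (rho 0.12; permutation p = 0.109, adjusted 0.631). Within the 20 SocialInteraction or the 21 NoInteraction mice alone no gene was called (1488 and 764 genes at an unadjusted p under 0.05), and the number of permutations limits the adjusted p there.

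The 5 genes most like Dbp were Ciart, Nr1d2, Bhlhe41, Kcne4 (r = 0.71) and Ccl17 (0.70). The 5 most opposite were Rbm45 (-0.78), Cysltr2 (-0.75), Arntl, Nfil3 and Sphk2 (-0.69), and Sphk2 overlaps Dbp on the opposite strand by 737 bases.

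The slope on Dbp gives how far a gene moved, on the log2 scale, for each log2 unit of Dbp between mice of 1 group. It was 1.01 ± 0.09 (SE) for Ciart, 0.52 ± 0.16 for Per2, 0.41 ± 0.08 for Per3 and 0.36 ± 0.07 for Nr1d1, and -0.33 for Arntl. Along this shared axis Nr1d1 and Per3 moved in the same direction. Per2 had a slope of the same sign, but its correlation with Dbp was not called. Between the sets Nr1d1 was lower and Per2 and Per3 were higher, and Dbp differed by 0.06. What the shared axis stands for was not tested, and no hour was recorded to compare it with. With Dbp as a covariate of each mouse, 9.54% of genes were called. Per2 then gave 0.25 (adjusted p = 0.00172), Per3 0.11 (0.015), Nr1d1 -0.14 (0.000958) and Cry1 0.07 (0.0961). This fit counts mice of a run as independent, and no run-level version was made.

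**Figure D4:**
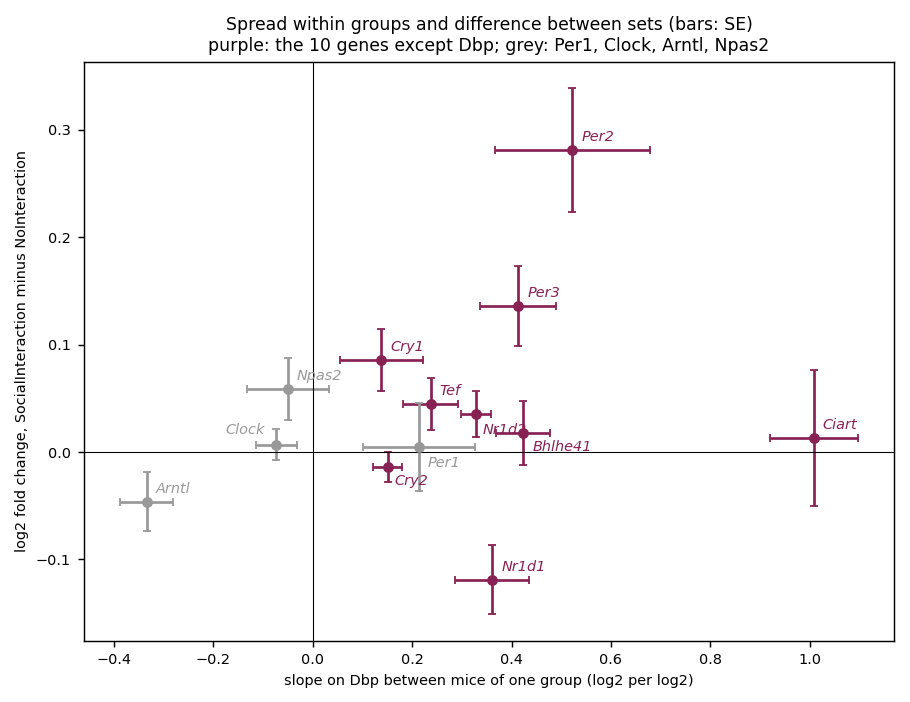
Within-group slope on Dbp (x axis, log2 per log2 unit of Dbp over 41 mice) against the SocialInteraction minus NoInteraction log2 fold change (y axis) for the clock genes, with SE bars; members in purple, Per1, Clock, Arntl and Npas2 in grey. Ciart has the steepest slope (1.01) and a difference of 0.01, while Nr1d1 (slope 0.36) lies below 0 and Per2 (slope 0.52) is highest.

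For the members, part of the spread between mice was common to all 6 regions of a mouse. The share of between-mouse variance common to the regions, within groups, was 0.572 for Ciart, 0.529 for Per2, 0.464 for Dbp, 0.383 for Nr1d2, 0.356 for Nr1d1 and 0.353 for Per3. Over 15173 genes the median share was 0.091, and these 6 genes stood between percentiles 92.3 and 97.4. Tef (0.281), Cry1 (0.191), Bhlhe41 (0.156) and Cry2 (0.139) shared less. Without Nacc the shares were 0.649 for Ciart, 0.602 for Per2 and 0.557 for Dbp. A mouse with high Ciart or Per2 in one region thus tended to be high in the others, which is a description of these 41 animals.

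Whether time of day differed between the sets could not be read from a recorded hour. What was measured is that 3 members differed between sets over mice and none over runs. Dbp and Ciart did not pass the test, with intervals over mice that end at 0.165 and 0.136. Over mice, 3 of 5 other clock outputs rose (Wee1, Tsc22d3 and Lonrf3), against 8.56% of all genes called. Tsc22d3 is also a glucocorticoid-responsive gene. Mice of both sets spread along a common axis of these genes. A difference in collection hour, the encounter itself and the runs cannot be told apart with these samples.

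In other gene groups that respond to handling, arousal or hormones, some genes differed between the sets over mice, where 8.56% of all genes were called. Values for these groups with runs as the unit are not given here. Their part in the Per2, Per3 and Nr1d1 differences was not tested. Of 12 glucocorticoid-responsive genes 5 rose and none fell, among them Plin4 (2.05, adjusted p = 1.02e-05), a lipid droplet protein, and Tsc22d3 (0.30, 0.0118), also a clock output. Of 9 temperature-responsive genes, 4 heat shock genes rose, such as Hsph1 (0.23, 6.68e-05) and Hspa8 (0.14, 0.000207), and Cirbp, the cold-inducible RNA-binding protein, fell by 0.21 (0.000296). Of 12 immediate early genes, which mark recent neuronal activity, all were above 0 but only Fosb was called (0.52, 0.00148). That is close to the share over all genes.

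Among clock outputs, 3 of 5 rose: Wee1, a cell cycle kinase under E-box control (0.12, adjusted p = 0.00199), Tsc22d3 and Lonrf3 (0.12, 0.0338). Of 10 genes that turn over clock proteins, only the casein kinase Csnk1a1 rose (0.04, adjusted p = 0.00259). The share called over all genes was the 8.56% given above.

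Over all markers in the cell type lists, 3 genes passed, which is close to the share over all genes (8.56%). Cspg4, 1 of 2 markers of oligodendrocyte precursors, rose by 0.14 (adjusted p = 0.000167). Aldh1l1 of astrocytes rose by 0.08 (0.043) and was the only 1 of 4 astrocyte markers above 0. P2ry12 of microglia fell by 0.11 (0.0174), and 2 of 4 microglial markers were above 0. No marker of the other cell types passed, and single genes do not show a change of a cell type. The summed precursor markers were 81.6 to 97.2 CPM without and 86.4 to 94.3 CPM after the encounter, the microglial markers 146.7 to 178.1 and 139.7 to 170.5 CPM, and the astrocyte markers 669.6 to 801.8 and 650.5 to 785.2 CPM. The ranges of each list overlapped between sets, and the part of these cells in the clock gene differences was not tested.

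The difference between sets was also taken within each rearing arm, with 6 or 7 mice a side. Per2 gave 0.24 in Ctrl_Vehicle, 0.32 in ELA_Vehicle and 0.28 in ELA_SAFit2, with adjusted p of 0.449, 0.165 and 0.136. Its medians without and after the encounter were 33.4 and 40.6 CPM, 32.1 and 44.5 CPM, and 31.3 and 38.7 CPM, and no arm passed alone. Per3 gave 0.11, 0.17 and 0.13. Nr1d1 gave -0.10, -0.05 and -0.21, with adjusted p of 0.654, 0.776 and 0.042, and its call in ELA_SAFit2 was lost without Nacc. The shares of all genes called were 0.0288%, 0.023% and 1.61%.

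Dbp gave 0.03 in Ctrl_Vehicle, 0.22 in ELA_Vehicle and -0.06 in ELA_SAFit2. The responses of the arms were compared directly by interaction terms. For ELA_Vehicle minus Ctrl_Vehicle no gene was called (0.0%) by edgeR or DESeq2, with 907 at an unadjusted p under 0.05, and Per2 gave 0.09 (adjusted p = 0.98). For ELA_SAFit2 minus ELA_Vehicle 0.0403% were called and no member was among them, with -0.04 for Per2, -0.16 for Nr1d1 and -0.28 for Dbp (adjusted p = 1.0 for each).

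Early adversity and SAFit2 left no called difference in the clock genes. In 6 comparisons between arms within a set, with regions summed, no gene was called (0.0%), with 545 to 1017 at an unadjusted p under 0.05, and DESeq2 called 1 to 9 genes in each and no member. The members lay between -0.12 and 0.20 on the log2 scale, with adjusted p of 0.88 or above. By region, 33 of 36 comparisons had no call (0.0%, with 214 to 1963 at an unadjusted p under 0.05), 1 in vHipp had 1 gene (0.00636%) and 2 in mPFC had 1 gene each (0.00632%). No member was called, and the lowest adjusted p of a member was 0.33, in Nacc (0.849 there without the 12 libraries).

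Between regions the levels differed by up to 2.74 times, for Per2. They are given as CPM per kilobase of exon, which also allows genes to be compared. Averaged over regions, Tef was highest (43.02), followed by Nr1d1 (34.8), Cry2 (24.6), Nr1d2 (24.0) and Dbp (23.9), and Per3 (7.09), Per2 (6.34), Bhlhe41 (5.21), Ciart (5.04) and Cry1 (4.28) were lower. Exon lengths are those of GENCODE M21, not of the transcripts actually used.

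Among the period genes, Per2 was highest in BLA (8.47 ± 1.20 CPM per kilobase, SD, n = 41) and lowest in DMT (3.09 ± 0.678), with vHipp above DMT in 41 of 41 mice. The neighbours from BLA through Nacc, mPFC and ACC to vHipp each differed by less than the SD. Per3 was highest in vHipp (8.50 ± 1.29), within the SD of Nacc and BLA, and lowest in DMT (5.11 ± 0.511).

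The thalamus had the highest levels of both Rev-erb genes. Nr1d1 was 48.9 ± 4.77 CPM per kilobase in DMT against 29.7 ± 3.36 in Nacc, and Nr1d2 was 35.1 ± 2.07 in DMT against 18.1 ± 1.51 in vHipp. Bhlhe41 followed them, with 8.39 ± 0.616 in DMT and 3.20 ± 0.405 in ACC. Cry2 was also highest in DMT (27.8 ± 1.97), and lowest in BLA (22.9 ± 1.09). DMT thus had the least Per2, Per3 and Tef (30.9 ± 1.72) and the most of both Rev-erb genes and Bhlhe41. Per1, which is not a member, was lowest in vHipp (14.08) and not in DMT (16.78).

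Nacc was highest for the D-box activators Dbp (36.3 ± 5.67 CPM per kilobase) and Tef (54.7 ± 6.18), and for Cry1 (5.94 ± 0.728), the last within the SD of DMT. Dbp fell into a higher group of Nacc, DMT (29.9) and BLA (26.8) and a lower group of ACC (17.5), mPFC (16.98) and vHipp (15.7), and neighbours within the lower group differed by less than the SD. Ciart did not differ beyond the SD between DMT (5.75), Nacc (5.66) and BLA (5.61) and was lowest in vHipp (3.59).

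In the fit over the libraries of all regions, each region was set against the mean of the other 5, and 71.9% to 84.2% of all genes were called, so calls of members are close to the background. The shares were 73.0% in ACC, 72.8% in BLA, 84.2% in DMT, 76.7% in vHipp, 75.5% in Nacc and 71.9% in mPFC. The members called up and down were 0 and 5 in ACC, 7 and 3 in BLA, 7 and 3 in DMT, 2 and 6 in vHipp, 8 and 2 in Nacc and 1 and 6 in mPFC. As log2 differences, DMT gave -1.16 for Per2, 0.93 for Bhlhe41 and 0.69 for Nr1d2, ACC gave -0.74 for Bhlhe41, and Nacc gave 0.82 for Dbp, 0.44 for Tef and 0.63 for Cry1. Without the 12 Nacc libraries that resembled another mouse, these last 3 were 0.81, 0.43 and 0.63.

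**Figure D5:**
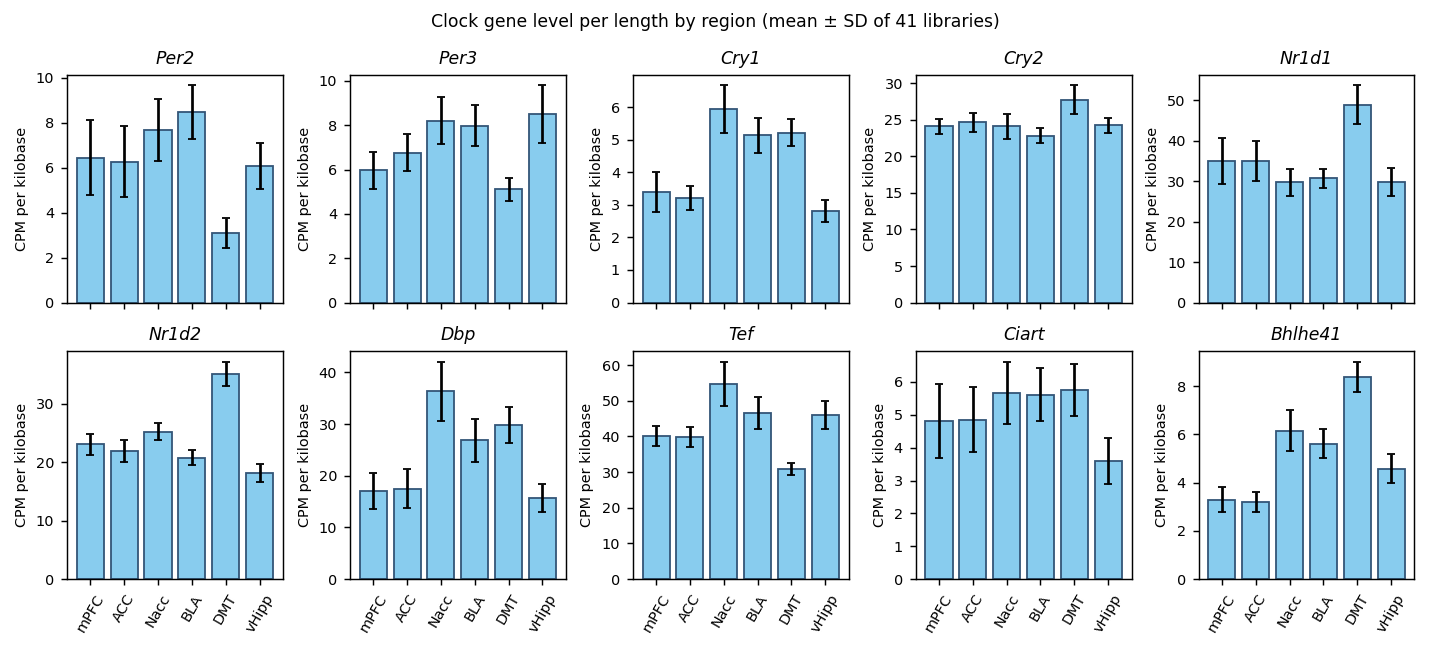
Mean CPM per kilobase of exon of each clock gene in the 6 regions (bars from 0, error bars SD over 41 libraries). Per2 drops in DMT (3.09 against 6.06 in vHipp, the next lowest), where Nr1d1, Nr1d2 and Bhlhe41 are highest, and Dbp and Tef are highest in Nacc.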

How the data were processed

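The deposited table holds estimated counts per gene and library, which the authors made with salmon. Their processing notes name STAR, DESeq2 and the build GRCm39, and versions were not given in the sources used here. Values that were not whole (12.124%) were rounded. No per-sample column was left unused. Libraries were mapped to arm, set and mouse by their titles. Gene names and types came from GENCODE M21 (GRCm38) and, for 978 genes, RefSeq symbols; promoter sequences are RefSeq GRCm38.p6, so their coordinates are not of the authors' build. Only protein-coding genes entered, if their counts added up to 100 or more and were above 0 in 6 or more libraries.

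edgeR 4.0.16 (quasi-likelihood, TMM scaling, R 4.3.3) was fitted to the per-mouse sum of its regions, to each region, and to all libraries. limma 3.58.1 tested differences of response between regions on log2 CPM (prior count 2). Correlations used 100000 permutations within groups (scipy 1.17.1). The 10 members were named in every comparison, with Per1, Clock, Arntl and Npas2, and other lists by count with at most 4 or 5 examples. Members and lists were chosen with earlier results of these data known. Mouse numbers mark the same animal in every region, by their titles: the median correlation of deviations between regions of a mouse was 0.15 to 0.322 over 10 region pairs without Nacc and 0.104 to 0.172 over 5 pairs with it. Per the methods, cages mixed litters; litters are not given by mouse, and p-values measure the spread between these mice. Intervals are 95% intervals over mice. Alternatives were DESeq2 1.42.0, RLE size factors, no filter on low counts, the mean of regions (limma), leaving out Nacc or its 12 discordant libraries, each mouse left out in turn, runs as the unit and the mouse as a block. The Dbp covariate and the test between regions were chosen after seeing the data. Scripts were tested on simulated data.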

Additional observations from a re-analysis of the deposited data

Results flagged for a closer look

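In each of the 6 groups of arm and set, the lowest and highest mouse of every clock gene was compared with its nearest neighbour (regions summed). Of 60 such groups 3 had a mouse standing apart, and chance gives about 1 in 20. In NoInteraction ELA_SAFit2, mouse 7 had the lowest Nr1d2 (117.0 CPM) and the lowest Dbp (54.4 CPM). In SocialInteraction ELA_Vehicle, mouse 21 had the lowest Bhlhe41 (32.7 CPM). With the mean of arm and set subtracted, mice 7 and 21 are also the 2 mice farthest from the median of Dbp, and the correlations with Dbp are given without them.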

How the results depend on the processing

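Between sets (regions summed), Per2, Per3 and Nr1d1 kept their direction in every alternative run and were called in each of the 41 repeats without 1 mouse (Per2 0.26 to 0.30, Per3 0.12 to 0.15, Nr1d1 -0.13 to -0.10). Those repeats called 1167 to 1769 genes and 3 to 4 members, the fourth being Cry1 in 8 of 41. With Nacc left out of the sums, Per2 gave 0.33, Per3 0.16 and Nr1d1 -0.12, each still called over mice. With runs as the unit 372 genes and 0 members were called against 1488 and 3 over mice, and by region 380 genes and 0 members against 2505 and 9. Within single arms 5 (Ctrl_Vehicle), 4 (ELA_Vehicle) and 280 (ELA_SAFit2) genes were called, 289 in all, with 0, 0 and 1 member. DESeq2 called 691 in place of the 289, and without Nacc 0 members were left. Fewer mice or runs enter these tests. Between regions, 61 genes in place of 96 differed in response once Nacc was left out, and 0 members in either. Of the 7 interaction calls, limma on the mean of regions left 0. Between arms DESeq2 called 150 genes in place of 3, with 0 members. For likeness to Dbp, 36 genes and 7 members were called, and 41 and 7 without Nacc. In SocialInteraction mice alone 0 and 0 were called, in NoInteraction mice alone 0 and 0, and 398 genes with Nr1d1 as the anchor. With the mouse as a replicate block, calls between regions went from 78932 to 81615 genes and from 50 to 53 members; a block could not be used between sets, which share no mouse. Where no fewer samples entered, the cause was not tested. No called value reversed. The signs of Dbp, Ciart, Nr1d2, Cry2, Bhlhe41, Per1 and Clock, which were never called, changed in some alternatives. Without the filter on low counts 7 of the 9 calls by region were left.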
